A study of Homo sapiens with 6 samples.

Results

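Interleukins, chemokines and growth factors are secreted proteins with which cells of the immune system act on each other. Here 40 such genes were followed in BL-2 cells, a long-established line grown from a Burkitt lymphoma, a tumour whose cells resemble germinal centre B cells. The members were named by gene symbol, and 38 of the 40 had at least 1 probe set whose annotation gives that symbol alone, out of 19775 genes represented in this way. IL9 and CSF2 had none in the annotation used and were not analysed here. The probe set with the highest mean over all 6 arrays stood for each gene.

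BL-2 cells exposed for 6 h to lipopolysaccharide (LPS), the outer membrane component of Gram-negative bacteria, were set against BL-2 cells that received no treatment. Each group had 3 samples, each on its own Affymetrix array, and both groups are the same cell line, so they stand for 1 tumour. The labels do not say that the samples came from separate cultures, so a p-value here reflects only how these samples scatter, which can be technical scatter. The values are the deposited ones, taken as log2 because they lie between 5.46 and 14.81. The number of arrays limits the precision.

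In myeloid cells, LPS is handed by CD14 to TLR4 and its co-receptor MD-2, and the adaptors behind them switch on NF-kB and interferon regulatory factors. Cytokine and chemokine genes are among the targets that these factors bring up within hours, and B cells are known as a source of some of them, such as IL6, IL10 and the chemokines CCL4 and CCL22. Secreted cytokines then act through receptors on the same or on neighbouring cells. The comparison asks whether transcripts of these messengers differed after LPS.

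B cell markers were present, with 6 of 7 measured at a mean of 7 or more, among them MS4A1 and CD79A, and so were 4 of 5 germinal centre markers. Of the markers of cells that a B cell line should lack, 0 of 8 for monocytes and macrophages, 0 of 10 for T and NK cells and 1 of 8 for fibroblasts and epithelium reached 7. The exception was the collagen gene COL1A1 at 7.99, so a mean over 7 does not by itself show that a gene is expressed. The arrays also parted by the level of added bacterial and phage hybridisation controls. Array set A held LPS 1, LPS 2 and control 1, and array set B held LPS 3 with controls 2 and 3, so differences within each set are given beside some of the pooled ones. These rest on a single control array in set A and a single LPS array in set B. Leaving out control 1 puts all other controls in set B, and leaving out LPS 3 puts all other LPS arrays in set A. Those refits therefore mix LPS with array set.

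None of the 38 genes changed past the test after LPS. With limma over all 54613 probe sets, 0 members rose and 0 fell at a Benjamini-Hochberg adjusted p under 0.05. Of all 19775 genes 0.389% were called, 0.182% upward and 0.207% downward. The smallest adjusted p of any member was 0.568, and 3 members, IL16, IL23A and CXCL9, had an unadjusted p under 0.05, a share close to the 9.56% of all genes with such a p. The differences ran from -0.17 to 0.21 on the log2 scale, 19 above and 19 below 0, with a median of 0.0002 against 0.0016 for all genes. Their median size was 0.044, against 0.054 for all genes, and 0.043 for the 35 members with a mean under 7, against 0.040 for all 10934 genes under that level. With array set as a block in the model the count was also 0, where 2.02% of all genes were called.

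The intervals give the size of change that the arrays leave room for. Over the 38 members the upper ends of the 95% intervals, which are not adjusted for the number of genes, lay between -0.01 and 0.41 on the log2 scale, and the highest, for IL16, is 1.33-fold higher in LPS cells. Among the 35 members under 7 the highest upper end was 0.31 or 1.24-fold, for CXCL9. The lowest lower end was -0.32, a level 1.25-fold lower in LPS cells, for IL23A. These limits hold for the deposited scale, on which values near the floor of about 5.5 may understate a change. In RNA of a whole culture, a change in the number of cells that make a transcript and a change per cell cannot be told apart.

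**Figure D1:**
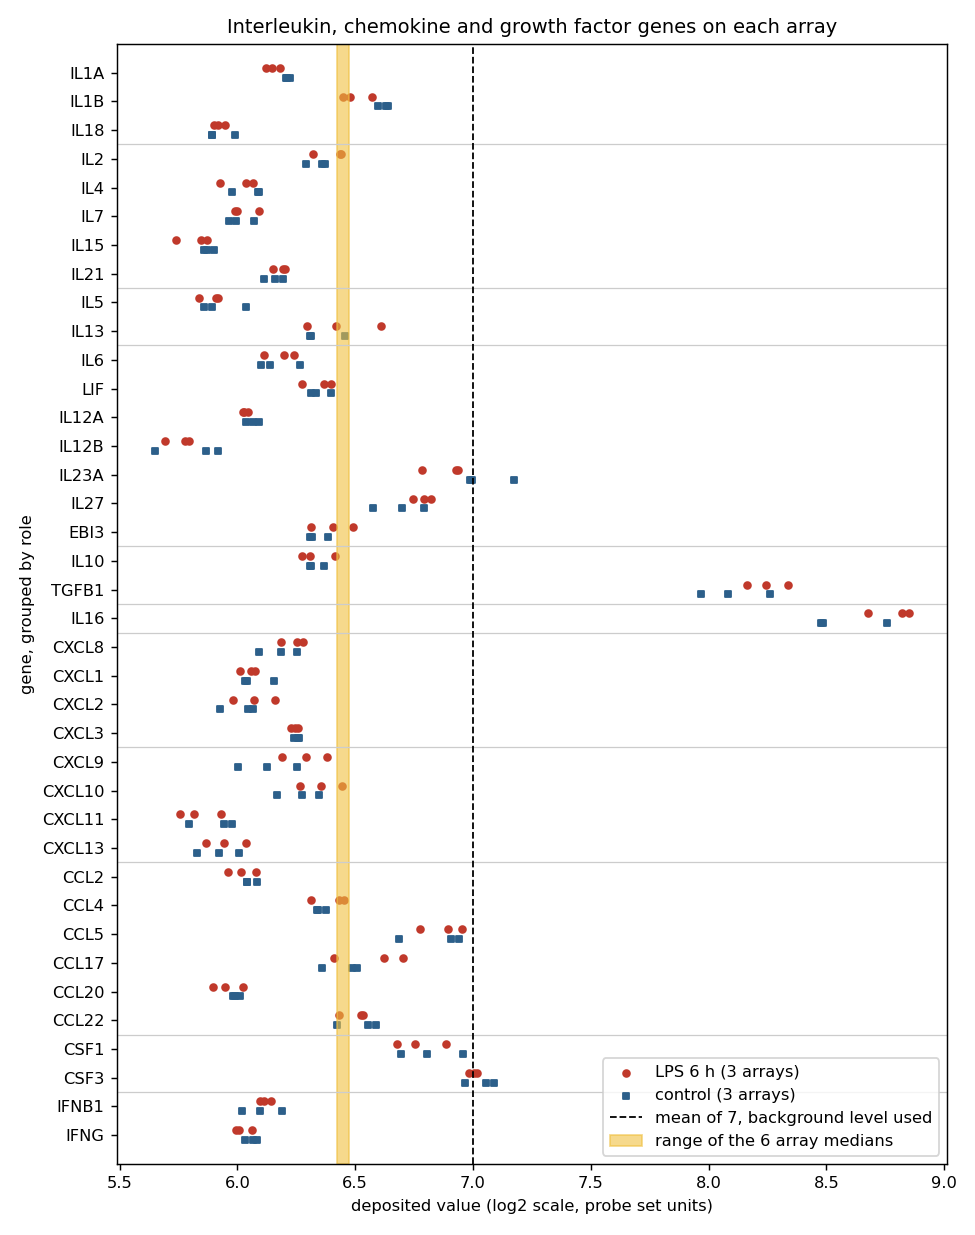
Deposited values (log2 scale, horizontal axis) of the 38 genes on each array, LPS as red circles and control as blue squares, with genes in rows grouped by role. The dashed line marks a mean of 7 and the yellow band the range of the 6 array medians, 6.42 to 6.47, and IL16 and TGFB1 stand to the right of the line on all arrays while CSF3 straddles it.

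A mean of 7 over all arrays was taken as the level above background. IL16, TGFB1 and CSF3 reached it, 3 of 38 members or 7.89%, where 44.7% of all genes did. The nearest members below were IL23A at 6.97, CCL5 at 6.86 and CSF1 at 6.80, and the nearest above was CSF3 at 7.02. Values of different probe sets lie on each probe set's own scale, so these positions do not rank the transcripts by abundance. The other members lay between 5.78 and 6.74, a range that takes in the array medians.

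IL16 is made as a precursor in lymphocytes, and its processed form attracts cells that carry CD4. It stood at 8.82, 8.85 and 8.68 in LPS cells and at 8.76, 8.49 and 8.48 in controls. LPS 3 lay below control 1, so the groups overlapped. The means were 8.78 ± 0.094 in LPS cells and 8.57 ± 0.16 in controls (SD, n = 3 each). LPS minus control was 0.21, and its 95% interval reached from 0.0071 to 0.41 (limma adjusted p = 0.601). The difference was 0.08 within array set A, 0.19 within set B and 0.14 when the set was a term of the model. The other IL16 probe sets gave 0.07 and -0.03, at means of 7.13 and 6.497.

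TGFB1, a cytokine that restrains lymphocyte growth and directs class switching to IgA, stood at 8.34, 8.24 and 8.16 in LPS cells, against 8.08, 7.97 and 8.26 in controls. Control 3 lay above LPS 2 and LPS 3. The means were 8.25 ± 0.087 in LPS cells and 8.10 ± 0.15 in controls (SD, n = 3 each), and the difference of 0.14 had an interval from -0.05 to 0.34 (limma adjusted p = 0.744). It was 0.077 without control 2 and 0.22 without control 3. A dimmer TGFB1 probe set, at a mean of 6.46, gave -0.09. The bright probe sets of both IL16 and TGFB1 carry the suffix _s_at, which marks probes shared between transcripts. Without such probe sets and those ending in _x_at, both differences turned to the other side of 0, at -0.03 for IL16 and -0.09 for TGFB1, and CSF3 alone stayed at 7 or more.

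CSF3, the granulocyte colony stimulating factor, was measured by 1 probe set at 7.002, 7.02 and 6.98 in LPS cells, against 6.96, 7.06 and 7.09 in controls. The control values enclosed all LPS values, and the difference was -0.04 (interval -0.17 to 0.10). CSF1, the macrophage colony stimulating factor, gave 6.68, 6.76 and 6.88 in LPS cells and 6.80, 6.96 and 6.69 in controls. The difference was -0.05 (interval -0.21 to 0.12). The 3 further CSF1 probe sets differed by 0.05, -0.08 and -0.10 between the groups. In the last of these, the dimmest at a mean of 6.25, all LPS values lay below all control values.

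**Figure D2:**
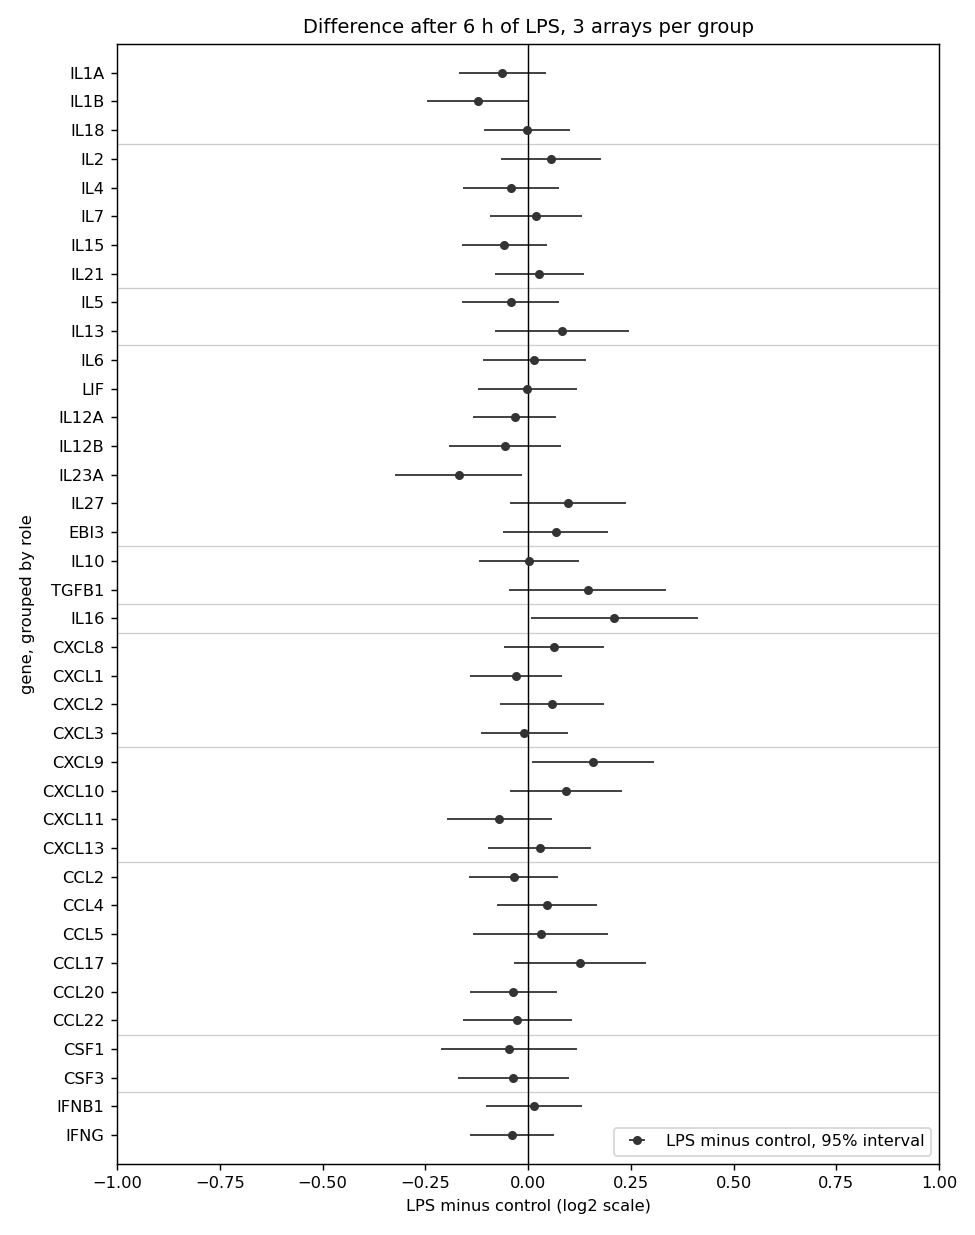
LPS minus control on the log2 scale (horizontal axis) for the 38 genes in rows, grouped by role, as points with 95% limma intervals from 3 arrays per group. The points lie between -0.17 for IL23A and 0.21 for IL16, and the intervals of IL23A, IL16 and CXCL9 leave out 0 before adjustment.

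The interleukin 1 family holds the early inflammatory cytokines IL1A and IL1B and the interferon gamma inducer IL18. IL1B stood at 6.45, 6.57 and 6.48 in LPS cells, against 6.63, 6.60 and 6.64 in controls. All LPS values lay below all control values, by a mean of 0.12 on the log2 scale with an interval of the difference from -0.25 to 0.0006 (limma adjusted p = 0.62), and the second IL1B probe set gave 0.01. IL1A gave -0.06 with its groups apart in the same direction, while its second probe set gave 0.13 with the groups apart upward. IL18 gave -0.0027.

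IL1A, IL1B and IL23A were the members whose chosen probe sets had LPS values all below control values, and 0 had them all above. Over all genes 7.8% lay apart downward and 7.95% upward. IL23A encodes the p19 chain of interleukin 23, which sustains T cells of the interleukin 17 type. Its values were 6.94, 6.93 and 6.78 in LPS cells and 6.99, 7.17 and 6.99 in controls, a difference of -0.17 (SE 0.072, limma adjusted p = 0.568) that was -0.06 within array set A, -0.30 within set B and -0.11 without control 2. The other 3 IL23A probe sets, at means of 5.87 to 6.28, gave 0.0033, -0.05 and 0.02, and their groups overlapped.

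Relatives of IL23A did not move past the test either. IL12A and IL12B, the chains of interleukin 12, which drives interferon gamma production, gave -0.03 and -0.06. IL27 pairs with EBI3, a subunit named for its induction by Epstein-Barr virus in B cells, to form interleukin 27. EBI3 stood at 6.49, 6.41 and 6.31 in LPS cells, against 6.32, 6.31 and 6.38 in controls, a difference of 0.07. IL27 gave 0.10 with an interval from -0.05 to 0.24. In both genes the groups overlapped.

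IL6, the growth factor of plasma cells and a standard readout of LPS in macrophages, stood at 6.24, 6.11 and 6.20 in LPS cells, against 6.10, 6.26 and 6.14 in controls. The difference of 0.01 had an interval from -0.11 to 0.14, whose upper end is 1.10-fold. LIF, which signals through the same receptor chain as IL6, gave -0.0018. IL10, the cytokine by which regulatory B cells restrain inflammation, stood at 6.41, 6.31 and 6.27 in LPS cells, against 6.31, 6.31 and 6.37 in controls. Its difference was 0.0022 with an interval from -0.12 to 0.12. All of these values lay under 7 in both groups.

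Cytokines known mainly from T cells and stroma lay under 7 in both groups. IL2, IL4, IL7, IL15 and IL21, which share the common gamma chain of their receptors, had differences from -0.06 to 0.06 at means of 5.85 to 6.37. IL4 and IL21 are the signals by which follicular helper T cells drive germinal centre B cells. The second probe set of IL4 gave 0.10 with all LPS values above all control values, which the chosen one, at -0.04, did not show. IL5 and IL13 gave -0.04 and 0.08, and the interferons IFNB1 and IFNG gave 0.01 and -0.04.

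**Figure D3:**
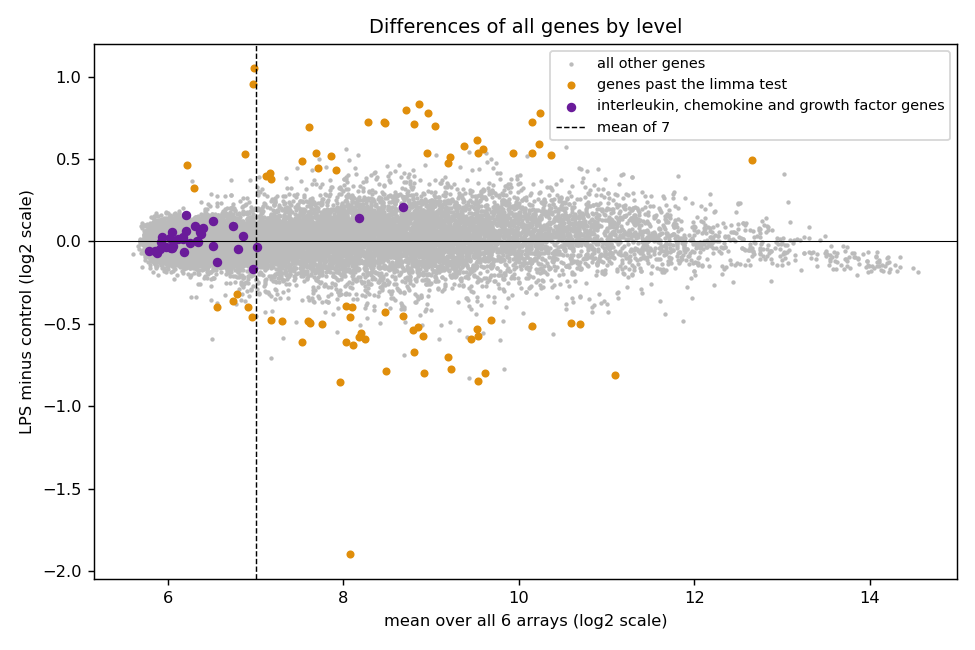
LPS minus control (log2 scale, vertical axis) against the mean over all 6 arrays (log2 scale, horizontal axis) for 19775 genes, with the 77 genes past the limma test in orange and the 38 interleukin, chemokine and growth factor genes in purple. The purple points lie near 0, and 35 of them stand left of the dashed line at a mean of 7.

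The chemokines include CXC proteins that attract neutrophils through an ELR motif, the interferon-induced ligands of CXCR3, and CC proteins that attract monocytes and T cells. The sequences upstream of the classical LPS-responsive members are shown here because they are standard examples of NF-kB regulation in macrophages. Each is the 200 bases that end just before the annotated start, from RefSeq on build GRCh38.p14, on the strand of the gene. Capitals mark matches on either strand to the NF-kB type motif GGGNNNTTCC, and in CXCL8 to its shorter form GGNNNTTCC. The windows are CXCL1 at chr4:73869193-73869392 (plus strand), CXCL2 at chr4:74099196-74099395 (minus), CXCL3 at chr4:74038690-74038889 (minus), CXCL8 at chr4:73740369-73740568 (plus), IL6 at chr7:22727000-22727199 (plus) and CXCL10 at chr4:76023498-76023697 (minus).
CXCL1: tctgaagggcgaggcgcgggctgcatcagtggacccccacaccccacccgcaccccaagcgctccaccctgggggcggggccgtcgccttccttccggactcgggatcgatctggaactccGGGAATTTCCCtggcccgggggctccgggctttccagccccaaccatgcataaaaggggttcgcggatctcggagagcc
CXCL2: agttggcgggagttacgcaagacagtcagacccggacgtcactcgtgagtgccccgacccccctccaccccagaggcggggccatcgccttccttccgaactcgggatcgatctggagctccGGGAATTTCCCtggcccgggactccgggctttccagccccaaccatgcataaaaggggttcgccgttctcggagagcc
CXCL3: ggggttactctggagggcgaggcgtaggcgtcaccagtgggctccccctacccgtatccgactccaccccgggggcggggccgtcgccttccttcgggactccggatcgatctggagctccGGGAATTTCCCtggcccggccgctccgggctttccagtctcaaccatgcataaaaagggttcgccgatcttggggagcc
CXCL8: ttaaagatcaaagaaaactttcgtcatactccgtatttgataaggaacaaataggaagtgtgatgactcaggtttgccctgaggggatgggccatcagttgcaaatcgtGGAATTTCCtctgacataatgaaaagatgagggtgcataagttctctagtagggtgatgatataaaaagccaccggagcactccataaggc
IL6: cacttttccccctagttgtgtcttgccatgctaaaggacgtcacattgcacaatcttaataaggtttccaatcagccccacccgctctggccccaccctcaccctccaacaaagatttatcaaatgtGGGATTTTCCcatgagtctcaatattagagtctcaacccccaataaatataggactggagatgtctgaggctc
CXCL10: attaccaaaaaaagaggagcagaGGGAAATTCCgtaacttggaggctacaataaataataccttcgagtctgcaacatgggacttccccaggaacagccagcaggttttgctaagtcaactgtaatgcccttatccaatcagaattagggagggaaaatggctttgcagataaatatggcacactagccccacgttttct

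In CXCL1, CXCL2 and CXCL3 the capitals hold the same 11 letters, which match the motif on both strands in overlapping positions. Over the 250 bases before the start, GGGNNNTTCC was found in 9 of the 26 measured members that have a window in the RefSeq table, namely CCL20, CXCL1, CXCL2, CXCL3, CXCL10, CXCL11, EBI3, IFNB1 and IL6. A gene can have more than 1 window, and the 26 members had 32. Of these 32 windows 9 held the motif, against 5.67% of all 35116 windows of that length. The shorter form GGNNNTTCC, which lies within the longer one, was found in 11 of the 26 members, in 11 of their 32 windows and in 17.1% of all windows. The interferon response type motif GAAANNGAAA was found in CXCL9, CXCL10 and IL4, and in 3.02% of all windows. Such matches describe the letters and do not show that a factor binds there. CCL2, CCL4, CCL5, CCL17, CSF1, CSF3, IL15, IL18, IL27, IL5, IL7 and LIF had no window in the table.

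The ELR chemokines with these motifs did not change past the test. CXCL8, the main neutrophil attractant of human cells, stood at 6.18, 6.28 and 6.25 in LPS cells, against 6.09, 6.25 and 6.18 in controls. The difference was 0.06 (interval -0.06 to 0.18), the groups overlapped, and its second probe set gave -0.04. CXCL1 gave -0.03 and CXCL3 gave -0.0093. CXCL2 was at 6.16, 5.98 and 6.07 in LPS cells and at 6.04, 5.93 and 6.07 in controls, a difference of 0.06, and its 2 further probe sets both gave -0.02. The upper ends of the 4 intervals lay between 0.08 and 0.18 on the log2 scale.

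The ligands of CXCR3, which draw effector T cells, are standard readouts of interferon. CXCL9 stood at 6.29, 6.38 and 6.19 in LPS cells, against 6.25, 6.12 and 6.00 in controls, and LPS 3 lay below control 1. The difference of 0.16 (SE 0.069, limma adjusted p = 0.58) was 0.08 within array set A, 0.12 within set B and 0.096 without control 3. CXCL10 stood at 6.27, 6.44 and 6.36 in LPS cells, against 6.17, 6.34 and 6.27 in controls, a difference of 0.09 (interval -0.04 to 0.23). CXCL11 gave -0.07 by one probe set and 0.01 by the other. CXCL13, the ligand of CXCR5 that guides B cells into follicles, gave 0.03.

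Among the CC chemokines, CCL4 is the one that activated B cells are best known to release. It stood at 6.43, 6.45 and 6.31 in LPS cells, against 6.34, 6.37 and 6.34 in controls, a difference of 0.05. The lowest value belonged to an LPS array. CCL17 and CCL22 are ligands of CCR4, the receptor of regulatory and type 2 helper T cells. CCL17 was at 6.41, 6.70 and 6.62 in LPS cells and at 6.49, 6.51 and 6.36 in controls. The difference of 0.13 had an interval from -0.03 to 0.29, and LPS 1 lay below controls 1 and 2. CCL22 gave -0.03 (interval -0.16 to 0.11).

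CCL5, an attractant of T cells and monocytes, stood at 6.89, 6.77 and 6.96 in LPS cells, against 6.69, 6.91 and 6.94 in controls. Its 3 probe sets differed by 0.03, 0.06 and 0.06, with overlapping groups in each. CCL2, the monocyte attractant, and CCL20, the ligand of CCR6, both gave -0.04. Over all 58 probe sets of the 38 genes, 0 passed the limma test, where 0.264% of all probe sets did. An unadjusted p under 0.05 was seen in 4 of the 58, against 8.08% of all probe sets. The groups lay apart upward in 2 and downward in 4, against 7% and 6.38% of all probe sets.

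Further secreted factors outside the members were also looked up. Of 21 other measured chemokines 0 passed the limma test and 0 had a mean of 7 or more, where 0.389% of all genes passed and 44.7% reached 7. The smallest p among them belonged to CXCL14 (0.13), CXCL16 (0.14), a chemokine with a membrane anchor, and CXCL17 (-0.08), as log2 differences. CXCL14 gave 0.018 as the mean over its probe sets. Of 27 other cytokines and growth factors 0 passed, and 3 reached 7, namely MIF (-0.13), FLT3LG (0.0014) and the angiogenic factor VEGFA (-0.21, limma adjusted p = 0.54). The growth factors HGF and KITLG gave 0.14 and 0.12, and HGF gave 0.033 as the mean over its probe sets and 0.00049 without those marked _s_at or _x_at. Single arrays moved some of these values, with VEGFA at -0.12 without control 2, KITLG at 0.067 without LPS 1, HGF at 0.076 without LPS 2 and CXCL17 at -0.0056 without LPS 1 and -0.15 without LPS 3. The genes for maturation, antagonism and mRNA decay of cytokines held 0 of 19 past the test. Among them LRRC32, which anchors latent TGFB1 on the cell surface, gave -0.33 (adjusted p = 0.345, and 0.0253 without control 1, which leaves all controls in array set B). The inflammasome adaptor PYCARD gave -0.21, and LTBP3, a binding protein of latent TGF-beta, gave 0.16, or -0.05 by its brightest probe set without the suffix _s_at or _x_at, and 0.07 without control 2. LRRC32 gave -0.22 without control 2, and its adjusted p was 0.356 to 0.857 when any single array other than control 1 was left out.

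Of the receptors through which the members act, 17 of 40 measured had a mean of 7 or more, which is 42.5% against 44.7% of all genes. Of the 40, 1 rose and 0 fell, where 0.182% of all genes rose and 0.207% fell. IL6ST encodes gp130, the signalling chain shared by the receptors of IL6, LIF and interleukin 27. It stood at 7.98, 7.92 and 7.87 in LPS cells, against 7.33, 7.55 and 7.57 in controls. All LPS values lay above all control values, and IL6ST rose by 0.44 on average, which is 1.36-fold (SE of the log2 difference 0.080, limma adjusted p = 0.0347). The rise was 0.62 within array set A and 0.31 within set B. Its second probe set gave 0.26 (adjusted p = 0.142) with the groups apart, and the 5 others, at means of 5.88 to 6.33, gave 0.0063 to 0.10.

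When single arrays were left out, the IL6ST difference ran from 0.37 to 0.49. The adjusted p stayed under 0.05 only without control 1 (0.37, adjusted p = 0.0447), which leaves all controls in array set B. The difference was 0.41 (adjusted p = 0.206) without LPS 1, 0.44 (0.215) without LPS 2, 0.47 (0.0547) without LPS 3, 0.47 (0.0949) without control 2 and 0.49 (0.122) without control 3. IL6ST also passed with array set as a block (0.47, adjusted p = 0.00133), with array weights (adjusted p = 0.0157) and with quantile normalisation (adjusted p = 0.04). The mean over its probe sets gave 0.13 (adjusted p = 0.276). With only probe sets above the median level, or those at 7 or more, the difference was the same and the adjusted p was 0.051 and 0.0521. The median over the 40 receptors was -0.0021, against 0.0016 for all genes. Of the 5 germinal centre markers measured, 4 lay below 0, where 9728 of all 19775 genes did, and their median was -0.31. Of these markers 1, MYBL1, passed the test (-0.56, limma adjusted p = 0.0288), where 0.207% of all genes fell. The part of these markers in the receptor differences was not tested.

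IL7R, the receptor chain for IL7, did not pass but had the lowest difference of the receptors, at 9.79, 9.75 and 10.06 in LPS cells, against 10.24, 10.49 and 10.44 in controls. The difference was -0.52 (SE 0.11, limma adjusted p = 0.0682), and a second probe set gave -0.35. It passed without control 1 (-0.60, adjusted p = 0.0187) and without LPS 3 (-0.62, adjusted p = 0.0315). The former leaves all controls in array set B and the latter all LPS arrays in set A, so both mix LPS with array set. IL7R also passed with quantile normalisation (adjusted p = 0.0227), with array weights (adjusted p = 0.0159) and with array set as a block (-0.44, adjusted p = 0.00155). It did not pass without control 2 (adjusted p = 0.301), control 3 (0.399), LPS 1 (0.378) or LPS 2 (0.396), nor with median centring (0.0783). CSF2RB, the chain shared by the receptors of CSF2, interleukin 3 and IL5, was higher in all LPS arrays by a mean of 0.32 (limma adjusted p = 0.229, and 0.036 with array set as a block). Its adjusted p was 0.238 to 0.637 when single arrays were left out. IL4R gave -0.26 (adjusted p = 0.426), with all LPS values below all control values.

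**Figure D4:**
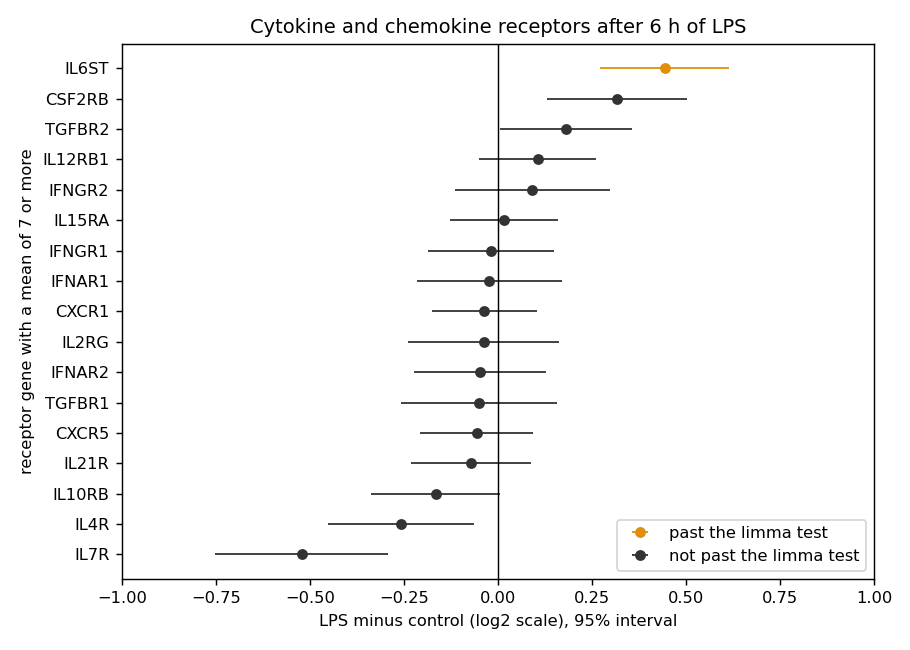
LPS minus control (log2 scale, horizontal axis) with 95% limma intervals for the 17 cytokine and chemokine receptor genes with a mean of 7 or more, from 3 arrays per group. IL6ST, in orange, is the receptor that passed the test at 0.44, and IL7R lies lowest at -0.52.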

How the data were processed

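RNA of 3 LPS and 3 control samples of BL-2 cells was measured on Affymetrix arrays after in vitro transcription labelling, per the labels' protocols. The authors deposited 1 value per probe set and array, taken here as log2 from their range. Their background correction, summary and normalisation are not given in the sources used here. Array medians ran from 6.42 to 6.47 and correlations between arrays from 0.992 to 0.997.

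Probe sets for Affymetrix controls (62) were not tested. The other 54613 were fitted in R 4.3.3 with limma 3.58.1, with group as the only term and an intensity trend, two-sided, Benjamini-Hochberg adjusted over all of them at 0.05. Steps were tested on simulated data. Genes were named by the platform's annotation, and all 38 measured members kept their symbol in RefSeq (GRCh38.p14). Array sets were parted at the widest gap, 0.22, in the mean of 18 hybridisation controls (next widest 0.081).

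The rule for naming takes every member, all 6 values of members with a mean of 7 or more, and of each further list the genes past the test and the 3 with the smallest p. Values by array of other members, and IL4R, MIF and FLT3LG, were chosen after values were seen. The members and lists were chosen with earlier results of these data known. Alternatives were a replicate block, an array set block, other normalisations, filters, variance priors, array weights, thresholds, probe set choices and leaving out each array.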

Additional observations from a re-analysis of the deposited data

How the results depend on the processing

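The count of members past the limma test was 0 in every alternative run, with a lowest adjusted p of any member of 0.165, reached without control 1, and of 0.301 with a replicate block. Over the refits the lowest member difference was -0.20 and the highest 0.30 on the log2 scale. IL16 was -0.027, TGFB1 -0.087 and LTBP3 -0.053 without probe sets marked _x_at or _s_at, and positive otherwise. With that choice 1 member had a mean of 7 or more in place of 3, with a level of 6.5 it was 10, and leaving out single arrays gave 3 to 4. The count over all probe sets was 144, and it was 734 with the array set block, 498 with the replicate block, 309 with array weights, 292 with quantile normalisation and 265 at a threshold of 0.1. Leaving out single arrays gave 10 (without LPS 2) to 374 (without control 1), with 14 without control 3, 44 without LPS 1 and 46 without control 2. The causes were not tested. Samples with the same number deviated from their group means with correlations of 0.59, -0.11 and 0.36 for numbers 1 to 3, over 8841 genes. Samples of different number also correlated where they shared an array set, at 0.44 for LPS 3 with control 2 and 0.21 for LPS 2 with control 1. Correlations across the sets were all negative, from -0.60 to -0.11. With 3 samples per group and numbers that overlap with the array sets, these values cannot settle whether the numbers mark pairs. Of 307 comparisons for 19 named genes, 286 kept direction and side of the threshold, 8 lost a call, all of them of IL6ST, and 10 gained one, among them IL7R (adjusted p = 0.0106) and LRRC32 (adjusted p = 0.0198) with the replicate block. Several alternatives leave the difference unchanged by construction, among them the threshold of 0.1, the filters and the other variance prior. The 286 is therefore not a count of independent checks. The 35 members with a mean under 7 lie between 5.78 and 6.97, and a change may be understated in those near the floor of the values.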

Other observations

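For IL1A, both probe sets separated the groups, in opposite directions. The one with the higher mean gave 6.15, 6.12 and 6.18 in LPS cells and 6.21, 6.22 and 6.21 in controls, and the other 6.20, 6.24 and 6.18 in LPS cells and 6.17, 6.02 and 6.04 in controls. The differences were -0.06 and 0.13 on the log2 scale, with limma adjusted p of 0.816 and 0.555. A probe set annotated to both IL23A and the T cell receptor segment TRBV19, which was not counted for IL23A, had a mean of 7.04 and a difference of -0.04.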
